A study of Mus musculus with 24 samples.

Results

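Metallothioneins and zinc carriers were followed in the OL translatome and in total spinal cord RNA before and after contusive SCI. The genes were taken by their symbols from the rows of the read count table, which gave 6 of the 21965 genes listed. They were the metallothioneins Mt1, Mt2 and Mt3, the zinc-sensing transcription factor gene Mtf1, the zinc exporter gene Slc30a1 (ZnT1) and the importer gene Slc39a14 (ZIP14). Taking rows by symbol used no measured value, but the members were chosen with earlier results of these data known. Each of the 6 genes had at least 235 counts in every library, so none was lost to the filter on low counts.

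The study used OL-Ribotag mice, in which tamoxifen activates an inducible Cre recombinase (CreERT2) directed to OLs and thereby an HA tag on the ribosomal protein RPL22 of mature oligodendrocytes (OLs). Polysomes were immunopurified with an HA antibody from lysed spinal cord, which gave OL RNA, and a share of the same lysate gave total RNA. All groups shared genotype and tamoxifen treatment, and the labels give female sex and an age of 10 to 12 weeks throughout. By the study's account, however, naive and dpi 42 tissue was taken on a common day, so dpi 2 and dpi 10 tissue came from younger mice sooner after tamoxifen, and these differences cannot be told apart from injury time. The naive group was uninjured, and the other groups received a 50 kdyn contusion at T9, with a cord segment across the lesion taken 2, 10 or 42 days post-injury (dpi). Every group had 3 pools of 2 mice, and each pool gave 1 OL and 1 total RNA library, 24 libraries in 8 groups. The pools were separate mice, so the spread between replicates is that between pools. The Cre line is also active in Schwann cells, and nerve root fragments can be part of the tissue. As in any bulk sample, fewer cells of a type and less RNA per cell cannot be told apart.

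Metallothioneins are small cysteine-rich proteins that bind zinc and copper, buffer the free metal in the cell and react with oxidants. When cytosolic zinc rises, MTF1 binds metal response elements in promoters and switches on Mt1, Mt2 and Slc30a1, whose product pumps zinc out across the plasma membrane. SLC30A proteins carry zinc out of the cytosol, SLC39A proteins carry it in, and SLC39A14 also transports iron and manganese. In the nervous system Mt1 and Mt2 are best known from astrocytes, and Mt3 is the form typical of brain and spinal cord.

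In the mouse genome (GRCm38, GENCODE M21) the metallothionein genes lie side by side on the + strand of chromosome 8, in a cluster that spans 43.1 kb with Mt4. Mt1 (ENSMUSG00000031765) is at chr8:94179082-94180327, and Mt2 (ENSMUSG00000031762) at chr8:94172664-94173568 ends 5514 bases before it. Mt3 (ENSMUSG00000031760) is at chr8:94152607-94154146. No stretch of 50 bases from transcripts of Mt1, Mt2 or Mt3 is shared with another gene, so reads of that length would not be split between the paralogs. Mtf1 (ENSMUSG00000028890) is at chr4:124802104-124849800 on the + strand and overlaps 1110065P20Rik on the other strand. Whether the counting used strand is not given in the sources used here, so reads of that overlap cannot be assigned to either gene. Slc30a1 (ENSMUSG00000037434) is at chr1:191906767-191913247 on the + strand and Slc39a14 (ENSMUSG00000022094) at chr14:70303469-70351425 on the - strand. All 6 genes are protein-coding.

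RefSeq promoter windows (GRCm38.p6), from 250 bases before to 50 after a gene's start, were matched for Mt1, Mt2, Mt3, Mtf1 and Slc30a1. The windows with a metal response element, the letters TGCACNC or TGCGCNC on either strand, are shown because MTF1 acts through this motif, and the capitals mark the matches.

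Mt1 promoter, chr8:94178839-94179138, + strand: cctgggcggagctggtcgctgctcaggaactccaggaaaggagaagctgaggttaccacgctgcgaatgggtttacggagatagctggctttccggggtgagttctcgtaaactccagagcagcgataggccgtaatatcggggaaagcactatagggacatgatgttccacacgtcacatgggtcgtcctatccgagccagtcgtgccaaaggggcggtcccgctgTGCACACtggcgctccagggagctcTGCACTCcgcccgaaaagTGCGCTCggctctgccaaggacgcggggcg
Mt2 promoter, chr8:94172368-94172667, + strand: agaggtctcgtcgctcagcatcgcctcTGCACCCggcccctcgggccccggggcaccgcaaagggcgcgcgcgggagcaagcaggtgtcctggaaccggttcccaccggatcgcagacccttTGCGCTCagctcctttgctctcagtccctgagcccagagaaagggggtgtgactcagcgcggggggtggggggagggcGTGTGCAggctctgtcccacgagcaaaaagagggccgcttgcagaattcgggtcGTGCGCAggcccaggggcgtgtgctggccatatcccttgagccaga
Mt3 promoter, chr8:94152357-94152656, + strand: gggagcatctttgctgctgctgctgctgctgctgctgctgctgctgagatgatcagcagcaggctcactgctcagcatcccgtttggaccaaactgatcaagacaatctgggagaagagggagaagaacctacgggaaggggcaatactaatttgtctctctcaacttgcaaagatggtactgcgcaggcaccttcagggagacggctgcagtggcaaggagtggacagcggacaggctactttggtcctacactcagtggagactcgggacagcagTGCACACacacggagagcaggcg
Slc30a1 promoter, chr1:191906531-191906830, + strand: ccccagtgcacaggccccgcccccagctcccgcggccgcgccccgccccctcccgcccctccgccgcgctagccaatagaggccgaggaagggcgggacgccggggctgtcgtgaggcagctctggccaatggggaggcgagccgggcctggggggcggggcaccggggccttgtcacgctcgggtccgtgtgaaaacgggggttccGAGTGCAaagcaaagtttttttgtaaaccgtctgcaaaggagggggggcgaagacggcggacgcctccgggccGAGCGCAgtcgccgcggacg

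The Mt2 window held 4 matches, the Mt1 window 3, the Slc30a1 window 2 and the Mt3 window 1. Of 32851 promoter windows of the same length, 25.7% held at least 1 match, 7.11% at least 2 and 0.517% at least 4. The Mtf1 window held none. An antioxidant element (TGACNNNGC) was found once each in the Mt2 and Slc30a1 windows and in 12.4% of all windows, and AGAACA, a glucocorticoid receptor motif, once in the Mtf1 window and in 19% of all windows. The STAT motif TTCNNNGAA, in 8.3% of all windows, and the full palindromic glucocorticoid element, in 0.00913%, were in none of these windows. In GENCODE, further transcripts of Mt1 begin 129 and 159 bases after the most upstream start, of Mt2 196 bases and of Mt3 139 bases, beyond the end of these windows, and the Mtf1 window is placed on a start 445 bases after the most upstream one. A match is a run of letters, and no binding was measured.

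The libraries held 29075211 to 32987841 counts for OL RNA and 25840127 to 29050061 for total RNA. Summed levels of 12 OL markers were 92309 to 129804 CPM (counts per 1e6) in OL RNA and 25273 to 31402 in total RNA, so each library had the OL content of its label. Summed marker levels here and below are scaled by library size alone, without the TMM factors used for the levels of single genes. Those factors were 0.742 to 0.899 for OL RNA and 1.1 to 1.29 for total RNA. Both dpi 42 libraries of pool 1 carry contradictory labels and were grouped by the description, in accord with the level of their OL markers. In dpi 2 pool 2, both libraries held 2414 to 2604 counts of Y-linked genes, against 0 to 13 in the other 22, although the labels give female mice. A list of 10 astrocyte markers separated the OL libraries: its summed level was 6538 to 13039 CPM in naive pool 3, dpi 2 pool 3, dpi 10 pool 2 and dpi 42 pools 1 and 2, and 1732 to 3648 CPM in the other 7 OL libraries. Total RNA libraries held 8178 to 11752 CPM of this list, and no astrocyte marker was at 0 in any library. Naive OL pool 3 also held 524 CPM of the 4 Schwann cell markers, against 1.1 to 1.21 CPM in the other naive OL pools.

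After SCI, Mt1, Mt2, Mt3 and Slc39a14 rose in OL RNA at 1 or more times, and Mtf1 and Slc30a1 fell. With edgeR and a threshold of q = 0.05 after Benjamini-Hochberg adjustment over all 17167 tested genes, 5 of the 6 genes changed in OL RNA on dpi 2, 2 on dpi 10 and 5 on dpi 42. The shares over all tested genes were 38.4%, 18.2% and 33.1%. In fits on only the groups compared, 2 of the 6 (Mtf1 and Slc39a14) were called on dpi 2 and again on dpi 42 in OL RNA. Over all genes in those fits, 2128 rose and 1839 fell of 15155 on dpi 2. On dpi 42 it was 1552 and 1669 of 15145. In total RNA 4 of 6 changed on dpi 2, none on dpi 10 and 1 on dpi 42, against 37.2%, 32.1% and 22.5% of all genes. With only the groups compared, 5, 3 and 5 of the 6 were called in total RNA. Over all genes in those fits, 4273 rose and 4283 fell of 16395 on dpi 2. The numbers were 4591 and 4286 of 16435 on dpi 10, and 3309 and 2947 of 16422 on dpi 42. On dpi 10, 3 of the 6 had an unadjusted p under 0.05 in total RNA, and DESeq2 called 2. Over all 17167 genes DESeq2 called 2816 up and 2984 down there.

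Mt1, one of the pair of broadly expressed metallothioneins, stood in naive OL RNA at 69.9, 79.5 and 479 CPM in pools 1, 2 and 3 (209 ± 233, mean ± SD, n = 3). On dpi 2 it was 636, 1055 and 1575 CPM (1088 ± 470), on dpi 10 261, 528 and 303 CPM (364 ± 144), and on dpi 42 2066, 1807 and 342 CPM (1405 ± 930). All dpi 2 pools were above all naive pools, whereas on dpi 10 and dpi 42 the groups overlapped, since naive pool 3 was above pools of both. The change from naive was 2.38 ± 0.61 on the log2 scale (fitted value ± SE, 5.2-fold, q = 0.00373) on dpi 2, 0.80 ± 0.58 (q = 0.393) on dpi 10 and 2.75 ± 0.62 (6.71-fold, q = 0.00169) on dpi 42. Fitted on only the groups compared, with fewer residual df and the spread of those libraries alone, both calls were lost (2.40, q = 0.0642, and 2.76, q = 0.0791). The fit across all groups shares a spread per gene between OL and total RNA. In naive tissue the SD of Mt1 was 233 CPM in OL RNA and 29.5 CPM in total RNA, so its OL calls draw on the narrower total RNA pools. With a length and GC offset the dpi 2 and dpi 42 calls were kept at 1.53 (q = 0.0275) and 1.82 (q = 0.0129). In total RNA Mt1 was 312, 284 and 343 CPM before injury, 870, 1587 and 1015 on dpi 2, 808, 716 and 735 on dpi 10, then 938, 1103 and 847 on dpi 42. Every injured total RNA library was above every naive one. The total RNA change was called on dpi 2 (1.89 ± 0.60, q = 0.0167) and not on dpi 10 (1.26 ± 0.59, q = 0.111) or dpi 42 (1.62 ± 0.59, q = 0.0554). The dpi 2 call in total RNA was lost without dpi 2 pool 2 (1.59, q = 0.0725), without naive pool 1 (1.88, q = 0.0502) or without naive pool 2 (1.82, q = 0.058), and with the length and GC offset (1.32, q = 0.0541). Fits on only the total RNA groups compared called Mt1 at each time (2.0, q = 9.1e-06; 1.41, q = 9.6e-10; 1.73, q = 4.1e-07).

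Naive OL pool 3 decided the size of the Mt1 changes. Without it they were 3.80 (q = 1.1e-05) on dpi 2, 2.28 (q = 0.00255) on dpi 10 and 4.16 (q = 9.5e-06) on dpi 42. Without all 5 OL libraries with high astrocyte markers, an alternative chosen after seeing the data, Mt1 changed by 3.43 on dpi 2 (q = 1.3e-09), 1.92 on dpi 10 (q = 3.5e-06) and 2.18 on dpi 42 (q = 6.0e-06). That fit, here and wherever it is used below, has 1 OL library left on dpi 42, which is assumed to vary like the other groups. It also leaves out the pool with the highest Mt1, Mt2 and Mt3 of every OL group. This narrows the spread of these genes, so their q in that fit are no independent support.

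Mt2, the neighbour and close relative of Mt1, followed the same course at a lower count. Its OL levels were 26.5, 21.5 and 247 CPM in naive pools 1 to 3, 342, 490 and 992 on dpi 2, 121, 248 and 154 on dpi 10, then 1039, 943 and 169 on dpi 42. Again all dpi 2 pools were above the naive ones, and the later groups overlapped naive pool 3. OL changes were 2.63 ± 0.71 (6.18-fold, q = 0.00541), 0.82 ± 0.67 (q = 0.456) and 2.87 ± 0.72 (7.29-fold, q = 0.00383) on dpi 2, 10 and 42. The dpi 2 and dpi 42 calls were lost in fits on only the groups compared (2.65, q = 0.0911, and 2.88, q = 0.106) and with a length and GC offset (1.43, q = 0.0662, and 1.57, q = 0.0521). Without naive pool 3 they were 4.59, 2.85 and 4.82 (q = 4.2e-06, 9.3e-04 and 5.9e-06), and without dpi 2 pool 3 the dpi 2 change was 2.02 (q = 0.0317). Without the 5 OL libraries with high astrocyte markers they were 4.05, 2.51 and 2.79 (q = 5.4e-10, 4.4e-07 and 8.2e-07). In total RNA Mt2 was 134, 120 and 178 CPM before injury, 553, 975 and 615 on dpi 2, 482, 397 and 422 on dpi 10, then 494, 601 and 438 on dpi 42, with every injured library above every naive one. The total RNA change was 2.31 ± 0.70 (q = 0.0123) on dpi 2, 1.59 ± 0.68 (q = 0.0829) on dpi 10 and 1.83 ± 0.69 (q = 0.0619) on dpi 42. The dpi 2 call was lost without naive pool 2 (2.20, q = 0.0503). With only the total RNA groups compared, Mt2 was called at each time (2.43, q = 5.4e-06; 1.74, q = 1.7e-08; 1.94, q = 2.1e-06).

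Mt2 counts per Mt1 count in total RNA were 0.422 to 0.519 in the naive pools, 0.606 to 0.636 on dpi 2, with no overlap, and 0.517 to 0.544 on dpi 42. On dpi 10 they were 0.555 to 0.596, again above every naive pool. In OL RNA the ratio was 0.271 to 0.516 in naive pools and 0.463 to 0.63 after SCI. These are ratios within a library and are given as a description.

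Mt3, the nervous system form, was not called in total RNA at any time in the fit across all groups. Its total RNA levels were 253, 246 and 264 CPM before injury, 330, 470 and 395 on dpi 2, 234, 224 and 244 on dpi 10, then 353, 336 and 289 on dpi 42. The dpi 2 and dpi 42 pools were all above naive and the dpi 10 pools all below (0.65 ± 0.68, q = 0.492; -0.12 ± 0.67, q = 0.927; 0.36 ± 0.67, q = 0.769). With only the groups compared it was called on dpi 2 (0.77, q = 2.8e-04) and dpi 42 (0.47, q = 0.00124), and the dpi 10 direction turned (0.0296, q = 0.718). Mt3 counts per Mt1 count went from 0.77 to 0.866 in naive total RNA to 0.29 to 0.389 after SCI. In OL RNA Mt3 was 29.2, 29.6 and 248 CPM in naive pools, 147, 113 and 467 on dpi 2, 44.5, 133 and 58.3 on dpi 10, then 537, 459 and 87.4 on dpi 42. Naive pool 3 lay within or above each injured group. The OL change was called on dpi 42 (1.82 ± 0.70, 3.53-fold, q = 0.0492) and not on dpi 2 (1.24 ± 0.68, q = 0.165) or dpi 10 (-0.38 ± 0.68, q = 0.794). The dpi 42 call was lost without naive pool 1 (1.31, q = 0.197), naive pool 2 (1.31, q = 0.195), dpi 42 pool 1 (1.36, q = 0.195) or dpi 42 pool 2 (1.54, q = 0.136), in the fit on only the groups compared (1.83, q = 0.231) and with the length and GC offset (0.79, q = 0.363). Without naive pool 3 the changes were 2.98 (q = 6.2e-04), 1.42 (q = 0.096) and 3.54 (q = 2.0e-04). Without the 5 OL libraries with high astrocyte markers they were 2.09 (q = 5.5e-09), 0.81 (q = 9.4e-04) and 1.55 (q = 6.6e-06), so the dpi 10 direction turned.

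**Figure D1:**
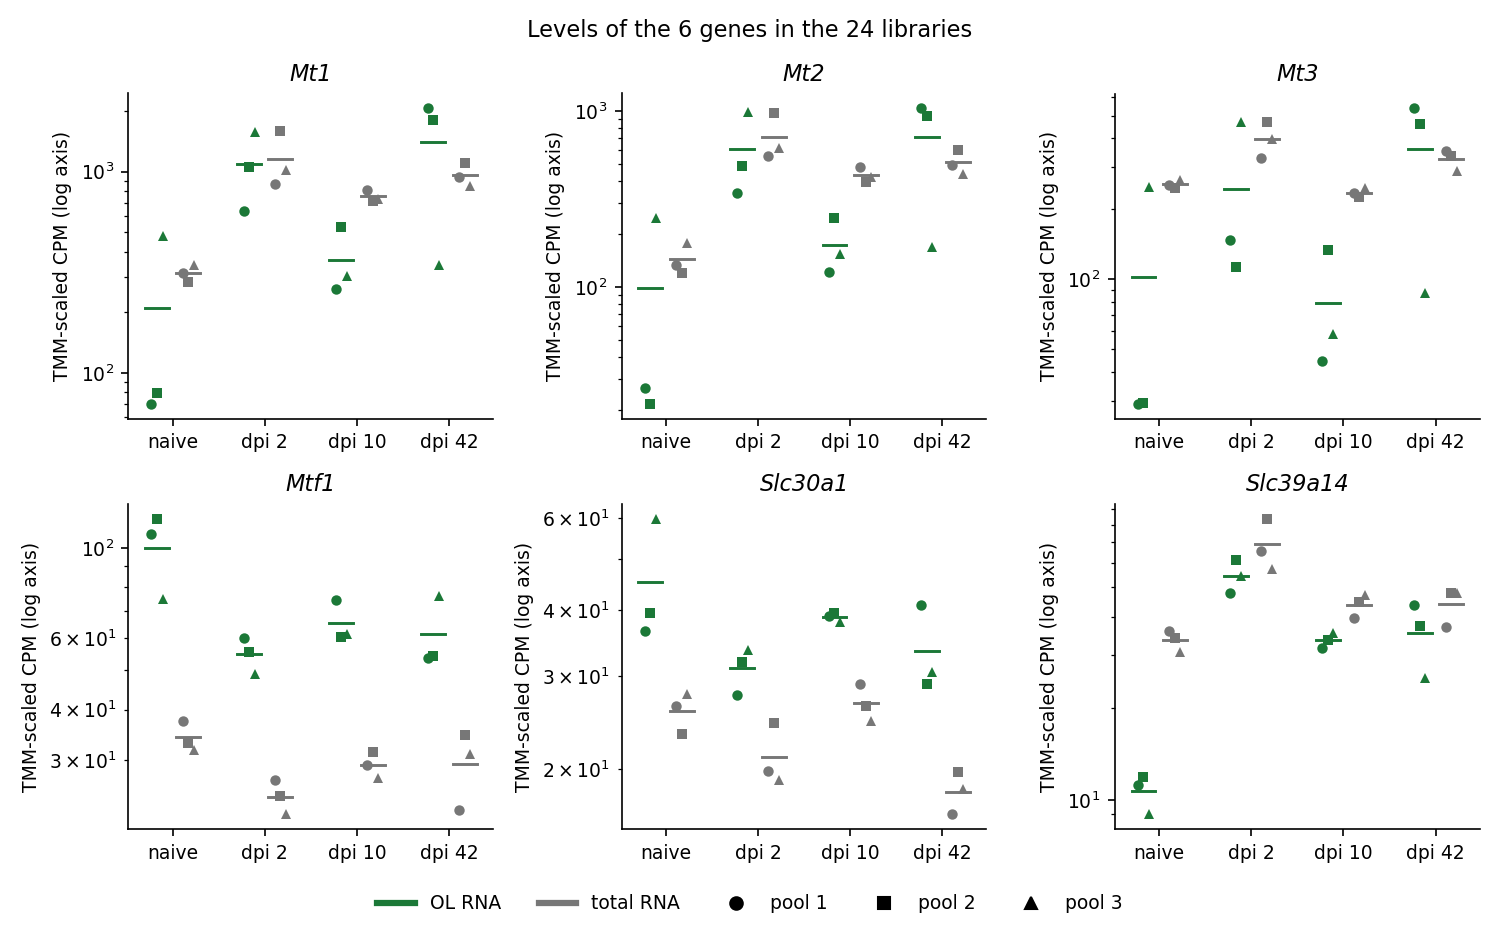
TMM-scaled CPM (log axis) of each gene in OL RNA (green) and total RNA (grey) for the naive, dpi 2, dpi 10 and dpi 42 groups, with a point per library, a symbol per pool and a bar at the mean of 3 pools. Mt1, Mt2 and Mt3 spread widely between OL pools (Mt1 in naive OL RNA 69.9 to 479 CPM), while Slc39a14 in naive OL RNA lies at 8.99 to 11.9 CPM, below every other library.

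Astrocyte markers varied between the same OL pools. Their summed level was 1929, 1732 and 10666 CPM in naive pools 1, 2 and 3 and 3648, 2147 and 8958 on dpi 2. It was 2381, 6538 and 2900 CPM on dpi 10 and 13039, 11196 and 2419 on dpi 42, where pools 1 and 2 were above every other OL library. The 10 markers had medians of -0.86, -1.01 and 0.00186 for the OL change on dpi 2, 10 and 42. At these times 1, 0 and 0 of the 10 fell, and 0, 0 and 1 rose. In each of the 4 OL groups, Mt1, Mt2, Mt3 and also Slc30a1 were highest in the pool with the highest astrocyte list. To set the genes beside this list directly, counts were expressed per 100 counts of 9 astrocyte markers (Gfap left out, since it rises after SCI), a measure chosen after seeing the data. Mt1 in naive OL RNA was then 3.71, 4.32 and 4.64 in pools 1, 2 and 3, against 4.75, 4.48 and 5.42 in total RNA of the same pools. On dpi 2 it was 27.8, 56.3 and 37.2 in OL RNA and 30.7, 57.4 and 30.1 in total RNA, and on dpi 10 16.4, 14.9 and 17.8 against 17.1, 15.1 and 15.7. The divisor moved as well. In total RNA, naive pool 1 had 9527 Mt1 counts and dpi 2 pool 1 had 31077, a smaller rise than from 4.75 to 30.7. The total RNA rise on dpi 2 by this measure therefore includes a fall of the marker counts. For Mt1 the naive pools no longer stood apart on this measure. On dpi 42 the values were 38.2, 32.3 and 22.6 in OL RNA and 17.7, 23.5 and 18.4 in total RNA, higher in OL RNA in 3 of 3 pools. For Mt2, naive OL pool 3 was still the highest, with 1.41, 1.17 and 2.39 in OL RNA and 2.03, 1.89 and 2.82 in total RNA. Naive Mt3 was 1.55, 1.61 and 2.4 in OL RNA, again highest in pool 3, and 3.84, 3.87 and 4.17 in total RNA, above every naive OL pool.

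The quotient of OL over total RNA on this measure was 0.781 to 0.965 for Mt1 in naive pools, 0.906 to 1.24 on dpi 2, 0.958 to 1.13 on dpi 10 and 1.23 to 2.17 on dpi 42. For Mt2 it was 0.619 to 0.85, 0.742 to 1.29, 0.745 to 1 and 1.18 to 2.07. For Mt3 the quotient was 0.404 to 0.576 in naive pools, 0.356 to 0.944 on dpi 2, 0.565 to 0.796 on dpi 10 and 0.921 to 1.5 on dpi 42. A quotient near 1 means that a gene had the same ratio to the astrocyte markers in both kinds of RNA. The part of astrocyte RNA in the OL changes of Mt1, Mt2 and Mt3 was not tested.

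**Figure D2:**
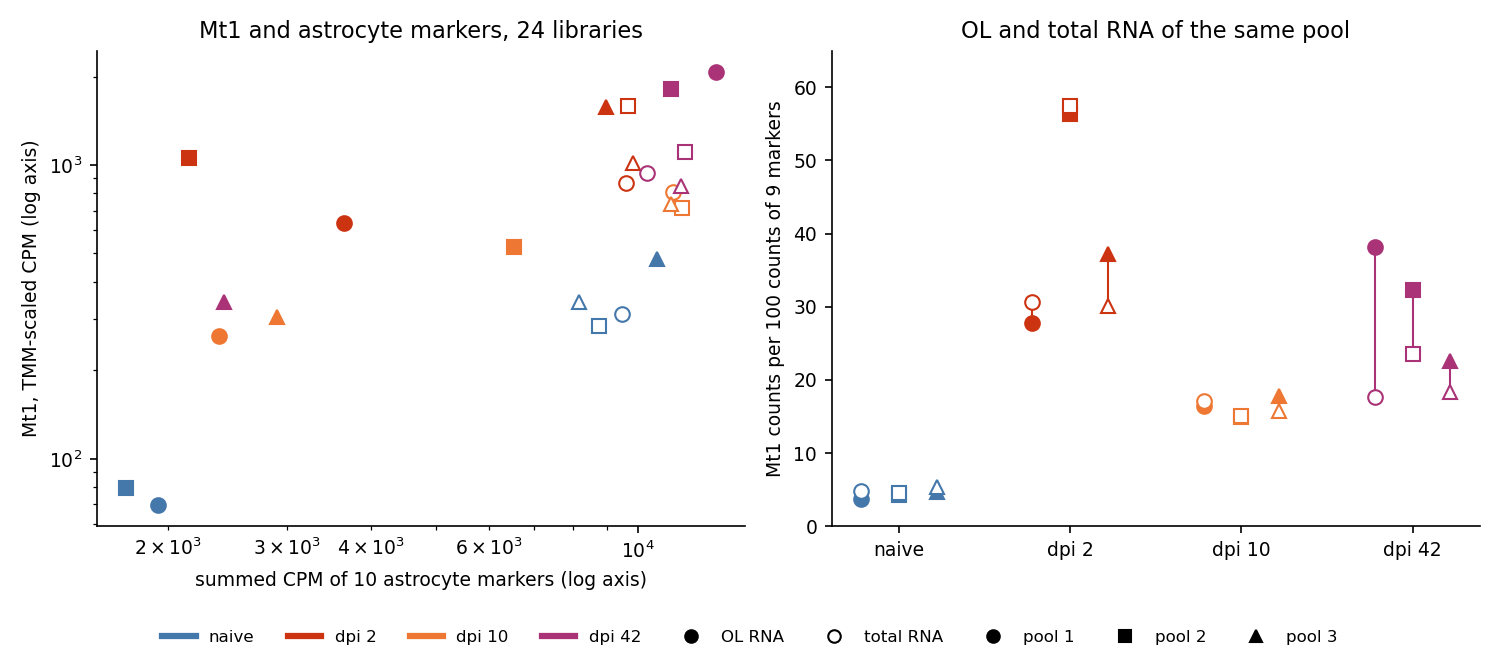
Left, Mt1 (TMM-scaled CPM, log axis) against the summed CPM of 10 astrocyte markers (log axis) in the 24 libraries, filled for OL and open for total RNA, coloured by group. Right, Mt1 counts per 100 counts of 9 astrocyte markers, with a line between OL and total RNA of each pool; on dpi 42 OL RNA is higher in all 3 pools (38.2, 32.3 and 22.6 against 17.7, 23.5 and 18.4).

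Between injury times, no step of the metallothioneins in OL RNA passed the threshold, although the fitted values on dpi 10 were below those of dpi 2 and dpi 42. From dpi 2 to dpi 10 Mt1 differed by -1.58 (q = 0.0617), with all dpi 10 pools below all dpi 2 pools, Mt2 by -1.80 (q = 0.0653) and Mt3 by -1.62 (q = 0.0994). Without dpi 2 pool 1 the Mt1 step was called (-1.78, q = 0.0499). From dpi 10 to dpi 42 the differences were 1.95 for Mt1 (q = 0.0535), 2.04 for Mt2 (q = 0.0782) and 2.20 for Mt3 (q = 0.0624), and DESeq2 called all 3 (q = 0.0198, 0.0348 and 0.0215). Without dpi 42 pool 3, the low astrocyte library of that group, they were 2.34, 2.43 and 2.59 (q = 0.00952, 0.0205 and 0.0167). Without all 5 OL libraries with high astrocyte markers they were 0.26 (q = 0.68), 0.28 (q = 0.679) and 0.75 (q = 0.0357). From dpi 2 to dpi 10 these values were -1.52, -1.53 and -1.28 in that fit (q = 4.5e-05, 7.2e-05 and 6.4e-06).

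OL enrichment compares OL with total RNA of the same pool, in a model with a term for each of the 12 pools. On the log2 scale, Mt1 in OL over total RNA was -2.16, -1.84 and 0.48 in naive pools, -0.45, -0.59 and 0.63 on dpi 2, -1.63, -0.44 and -1.28 on dpi 10, then 1.14, 0.71 and -1.31 on dpi 42. The sign differed between pools in 3 of the 4 groups, and each positive value was in a pool with high astrocyte markers. Fitted OL enrichment was not called for Mt1 (-1.21, q = 0.0752; -0.14, q = 0.846; -1.12, q = 0.082; 0.21, q = 0.771) or for Mt2 (-1.49, q = 0.0567; -0.34, q = 0.639; -1.38, q = 0.0566; 0.15, q = 0.868) in naive, dpi 2, dpi 10 and dpi 42 tissue. Mt3 was OL-depleted in naive tissue (-2.14 ± 0.68, q = 0.0171) and on dpi 10 (-1.74 ± 0.62, q = 0.0331), but not called on dpi 2 (-1.0, q = 0.205) or dpi 42 (-0.19, q = 0.842). Without naive pool 3, Mt1 (-2.0, q = 0.00338) and Mt2 (-2.41, q = 0.00186) were OL-depleted in naive tissue. The naive call for Mt3 was lost without pool 1 (-1.56, q = 0.147) or pool 2 (-1.58, q = 0.144), and the dpi 10 call without pool 1 (-1.40, q = 0.177) or pool 3 (-1.57, q = 0.142). In the fit without the pools of high astrocyte markers, chosen after seeing the data, all 3 genes were lower in OL than in total RNA at every time. Mt1 was at -2.02, -0.47, -1.46 and -1.31, Mt2 at -2.43, -0.80, -1.73 and -1.38 and Mt3 at -3.11, -1.56, -2.23 and -1.73. In naive, dpi 2 and dpi 10 tissue q was 0.00178 or less, and on dpi 42 there was 1 pool left. Every pool with a positive value for these genes was left out, so no other direction was possible in this fit.

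Of the 6 genes, 4 were called for OL enrichment or depletion in naive tissue, 2 on dpi 2, 3 on dpi 10 and 2 on dpi 42. The shares over all genes were 53.5%, 51.2%, 51.2% and 51.2%. Scaling shifts these values: over all genes the median OL enrichment was -0.31 in naive tissue and -0.24 at each injury time.

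Mtf1, the sensor that drives metallothionein transcription, was OL-enriched and fell after SCI. Its OL levels were 108, 118 and 75 CPM in naive pools (100 ± 22.3), 60, 55.3 and 49 on dpi 2 (54.8 ± 5.53), 74.6, 60.2 and 61.5 on dpi 10 (65.4 ± 7.98), then 53.7, 54.2 and 76.2 on dpi 42 (61.4 ± 12.9). All dpi 2 and dpi 10 pools were below all naive pools, and on dpi 42 pool 3 overlapped naive pool 3, the lowest naive pool. Changes in OL RNA were -0.87 ± 0.17 (1.83-fold lower, q = 4.0e-04), -0.62 ± 0.17 (1.53-fold lower, q = 0.016) and -0.71 ± 0.17 (1.63-fold lower, q = 0.00326). The dpi 10 call was lost without naive pool 1 (-0.56, q = 0.0764), naive pool 2 (-0.49, q = 0.108), dpi 10 pool 2 (-0.56, q = 0.0797) or dpi 10 pool 3 (-0.58, q = 0.0725). Without the 5 OL libraries with high astrocyte markers the changes were -1.03, -0.73 and -0.58 (q = 3.2e-05, 0.00218 and 0.0406). In every OL group Mtf1 was lowest in the pool with the highest astrocyte list. The part of this order in the Mtf1 changes was not tested.

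In total RNA Mtf1 was 37.6, 33.2 and 31.8 CPM before injury, 26.8, 24.5 and 22.1 on dpi 2, 29.2, 31.4 and 27.1 on dpi 10, then 22.7, 34.6 and 31.1 on dpi 42. It was lower than naive in every pool of dpi 2 and dpi 10, and the dpi 2 change was called (-0.49 ± 0.17, q = 0.0326). That call was lost without naive pool 1 (-0.41, q = 0.119) or 2 (-0.51, q = 0.0581) and without dpi 2 pool 2 (-0.49, q = 0.0773) or 3 (-0.42, q = 0.116). The dpi 10 and dpi 42 values were -0.23 (q = 0.349) and -0.22 (q = 0.414). OL enrichment of Mtf1 was 1.53 ± 0.14 in naive tissue (2.88-fold, q = 1.0e-06), 1.16 ± 0.14 on dpi 2 (q = 1.7e-05), 1.16 ± 0.14 on dpi 10 (q = 1.6e-05) and 1.06 ± 0.14 on dpi 42 (q = 3.6e-05). Each of the 12 pools had more Mtf1 in OL than in total RNA, by 0.65 to 1.82 on the log2 scale. The difference in OL enrichment from naive was not called (-0.36, q = 0.298; -0.37, q = 0.355; -0.47, q = 0.198).

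Slc30a1, the exporter at the plasma membrane, was the other OL-enriched gene. Its OL levels were 36.5, 39.5 and 59.8 CPM in naive pools, 27.7, 32 and 33.7 on dpi 2, 39.1, 39.6 and 38.1 on dpi 10, then 41, 29 and 30.5 on dpi 42. All dpi 2 pools were below the naive ones, and dpi 10 and dpi 42 overlapped with naive. The OL change was -0.54 ± 0.17 (1.45-fold lower, q = 0.0144) on dpi 2, -0.22 ± 0.17 (q = 0.421) on dpi 10 and -0.43 ± 0.17 (q = 0.0519) on dpi 42. Without naive pool 3, where Slc30a1 was highest, the dpi 2 change was -0.35 (q = 0.0755), while without the 5 OL libraries with high astrocyte markers it was -0.41 (q = 0.0397). The dpi 42 change was called without naive pool 1 (-0.62, q = 0.0111), naive pool 2 (-0.58, q = 0.0214) or dpi 42 pool 1 (-0.65, q = 0.0103). In the fit on only the groups compared the dpi 2 change was -0.48 (q = 0.169), and with the length and GC offset -0.44 (q = 0.0536).

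Total RNA held 26.3, 23.3 and 27.8 CPM of Slc30a1 before injury, 19.8, 24.5 and 19.1 on dpi 2, 29, 26.3 and 24.7 on dpi 10, then 16.4, 19.7 and 18.3 on dpi 42. The dpi 42 pools were all below naive, and this change was called (-0.51 ± 0.17, q = 0.0329), but not without naive pool 1 (-0.50, q = 0.0839) or 3 (-0.46, q = 0.115) or dpi 42 pool 1 (-0.44, q = 0.108) or 3 (-0.52, q = 0.0796). OL enrichment of Slc30a1 was 0.78 ± 0.16 (q = 0.0012), 0.56 ± 0.16 (q = 0.0113), 0.55 ± 0.16 (q = 0.0125) and 0.87 ± 0.16 (q = 6.0e-04) in naive, dpi 2, dpi 10 and dpi 42 tissue. It was above total RNA in all 12 pools, by 0.39 to 1.32 on the log2 scale. The dpi 2 call was lost without pool 3 (0.39, q = 0.12) and the dpi 10 call without pool 2 (0.53, q = 0.0606) or 3 (0.51, q = 0.0685). With library sizes alone as the scaling, Slc30a1 was at -0.00619 on dpi 2 and -0.0287 on dpi 10, where the median of all genes was -0.80 and -0.82, so its sign, though not its place above that median, depends on the scaling.

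Slc39a14, an importer of zinc, iron and manganese, had the largest change of the 6 genes in relation to its error. In naive OL RNA it was 11.2, 11.9 and 8.99 CPM in pools 1, 2 and 3 (10.7 ± 1.51). It reached 47.6, 61.2 and 54.2 CPM on dpi 2 (54.3 ± 6.81), 31.6, 33.6 and 35.3 on dpi 10 (33.5 ± 1.84), then 43.8, 37.2 and 25.2 on dpi 42 (35.4 ± 9.45). Every injured OL library was above every naive one, at each time. The OL changes were 2.35 ± 0.19 (5.08-fold, q = 4.3e-09), 1.65 ± 0.18 (3.14-fold, q = 1.8e-06) and 1.73 ± 0.18 (3.31-fold, q = 7.6e-07). Leaving out any library kept the calls, with 2.17 to 2.36 on dpi 2, 1.54 to 1.73 on dpi 10 and 1.50 to 1.84 on dpi 42. Without the 5 OL libraries with high astrocyte markers the values were 2.17, 1.54 and 1.11 (q = 1.7e-08, 3.6e-06 and 9.6e-04), and without dpi 2 pool 2 the dpi 2 change was 2.19 (q = 4.3e-08).

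Total RNA of Slc39a14 was 35.8, 34.1 and 30.6 CPM before injury, 65.8, 83.8 and 57.3 on dpi 2, 39.6, 44.6 and 47.1 on dpi 10, then 36.9, 47.8 and 47.6 on dpi 42. All injured pools were above all naive ones, and the change was called on dpi 2 (1.04 ± 0.18, 2.06-fold, q = 7.5e-05) and not on dpi 10 (0.39 ± 0.18, q = 0.101) or dpi 42 (0.40 ± 0.18, q = 0.114). Without both dpi 42 libraries of pool 1, whose labels conflict, the dpi 42 change was 0.51 (q = 0.0396). From dpi 2 to dpi 10 Slc39a14 fell in OL RNA by 0.70 ± 0.18 on the log2 scale (q = 0.00614), and from dpi 2 to dpi 42 it changed by -0.62 ± 0.18 (q = 0.0182). The latter was lost without dpi 2 pool 2 (-0.53, q = 0.0697) or dpi 42 pool 3 (-0.44, q = 0.0817). In total RNA these steps were -0.66 ± 0.17 (q = 0.0219) and -0.64 ± 0.17 (q = 0.0203). The dpi 10 step was lost without dpi 2 pool 2 (-0.49, q = 0.164), dpi 10 pool 1 (-0.59, q = 0.108) or dpi 10 pool 2 (-0.67, q = 0.0666), and the dpi 42 step without dpi 2 pool 2 (-0.48, q = 0.156) or dpi 42 pool 1 (-0.53, q = 0.107).

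Slc39a14 was the only member called in a comparison between injury times, with 22.3% of all genes called in OL RNA from dpi 2 to dpi 10 and 17.6% from dpi 2 to dpi 42, and 7.84% and 10.8% in total RNA. From dpi 10 to dpi 42 edgeR called none of the 6 in OL RNA (7.18% of all genes) or in total RNA (0.262% of all genes). In OL RNA 3 had an unadjusted p under 0.05, and DESeq2 called 3, with 894 up and 1060 down over all genes. In total RNA 1 had an unadjusted p under 0.05, and DESeq2 called 0, with 136 up and 150 down over all genes.

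**Figure D3:**
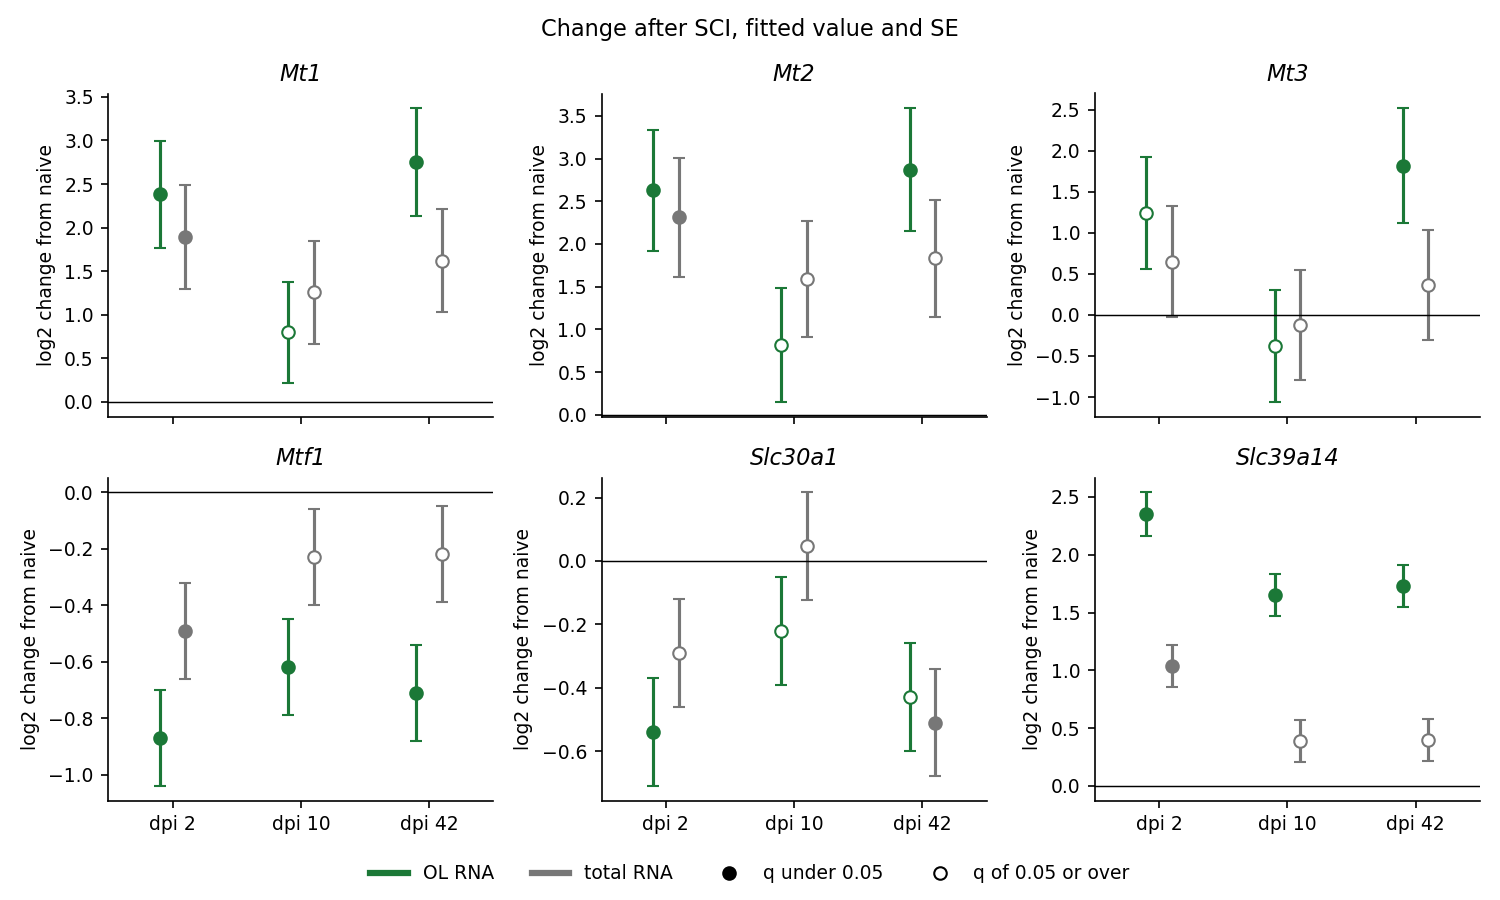
Fitted log2 change from naive on dpi 2, 10 and 42 in OL RNA (green) and total RNA (grey), with bars of 1 SE on either side and filled points where q is under 0.05; each gene has its own vertical axis. Slc39a14 has small errors and OL changes of 2.35, 1.65 and 1.73, above its total RNA changes of 1.04, 0.39 and 0.40, while the errors of Mt1, Mt2 and Mt3 are 0.58 to 0.72.

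Slc39a14 was OL-depleted in naive tissue and less so after SCI. In naive tissue OL over total RNA was -1.68, -1.52 and -1.77 on the log2 scale in pools 1, 2 and 3, -0.47, -0.45 and -0.0799 on dpi 2, -0.32, -0.41 and -0.41 on dpi 10, then 0.25, -0.36 and -0.92 on dpi 42. All 9 injured pools were above all naive pools. Fitted OL enrichment was -1.65 ± 0.18 in naive tissue (3.15-fold lower in OL RNA, q = 3.5e-06), -0.33 ± 0.17 (q = 0.119) on dpi 2, -0.38 ± 0.17 (q = 0.0776) on dpi 10 and -0.34 ± 0.17 (q = 0.115) on dpi 42, where it was -0.64 (q = 0.00475) without pool 1. The difference in OL enrichment from naive, an interaction in the paired model, was 1.32 ± 0.24 (q = 0.00349), 1.27 ± 0.24 (q = 0.00784) and 1.31 ± 0.24 (q = 0.00686) on dpi 2, 10 and 42. It was called for Slc39a14 alone among the 6 genes at each time, against 13.3%, 7.63% and 7.85% of all genes. For Mt1, Mt2 and Mt3 it was 1.07 to 1.15 on dpi 2 (q = 0.431 to 0.522), 0.0929 to 0.40 on dpi 10 (q = 0.941 to 1) and 1.42 to 1.96 on dpi 42 (q = 0.25 to 0.317), with SE of 0.73 to 0.92. Without naive pool 3 their dpi 42 differences were called (2.21, 2.55 and 2.90, q = 0.0486, 0.0376 and 0.0365). In the fit without the pools of high astrocyte markers these genes were called on dpi 2 and dpi 10, Mt1 at 1.55 and 0.56 (q = 7.8e-05 and 0.0311). Slc39a14 was at 1.21 and 1.25 (q = 7.3e-04 and 0.00133). On dpi 42, where that fit has 1 pool left, Mt1 was at 0.71 and Slc39a14 at 0.70. The pools left out were those with the highest Mt1, Mt2 and Mt3 in OL RNA of each group, which narrows the spread of these genes.

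Markers of other cells moved in the same libraries. The summed level of 10 microglia and macrophage markers in OL RNA was 16.5 to 22.6 CPM in naive pools, 87.2 to 113 on dpi 2, 227 to 269 on dpi 10 and 171 to 276 on dpi 42. In total RNA it was 276 to 342, 2203 to 2680, 5594 to 7299 and 3144 to 4798 CPM, so it was lower in OL RNA than in total RNA throughout. Summed levels of 5 fibroblast markers in OL RNA were 35.5 to 68.2, 181 to 223, 447 to 492 and 175 to 222 CPM. Both lists were higher in OL RNA on dpi 10 than on dpi 2, and Slc39a14 was lower. The 8 endothelial markers in total RNA summed to 262 to 326, 442 to 680, 331 to 388 and 352 to 397 CPM, highest on dpi 2 as Slc39a14 was. In OL RNA their sum was 312 to 322 CPM in naive pools and 190 to 231 on dpi 2. Their mean log2 of CPM plus 1 in OL RNA was 1.78 to 2.02 and 2.24 to 2.53. The 4 Schwann cell markers in OL RNA were 1.1 to 524 CPM in naive pools and 180 to 1240 after SCI, and Slc39a14 was 8.99 CPM in the naive pool with 524 CPM, below the other naive pools. Slc39a14 was not highest in the pool with the highest astrocyte list in naive, dpi 2 or dpi 10 OL RNA, but the order of its 3 pools on dpi 42 was that of this list. The part of these cells in the Slc39a14 change was not tested.

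**Figure D4:**
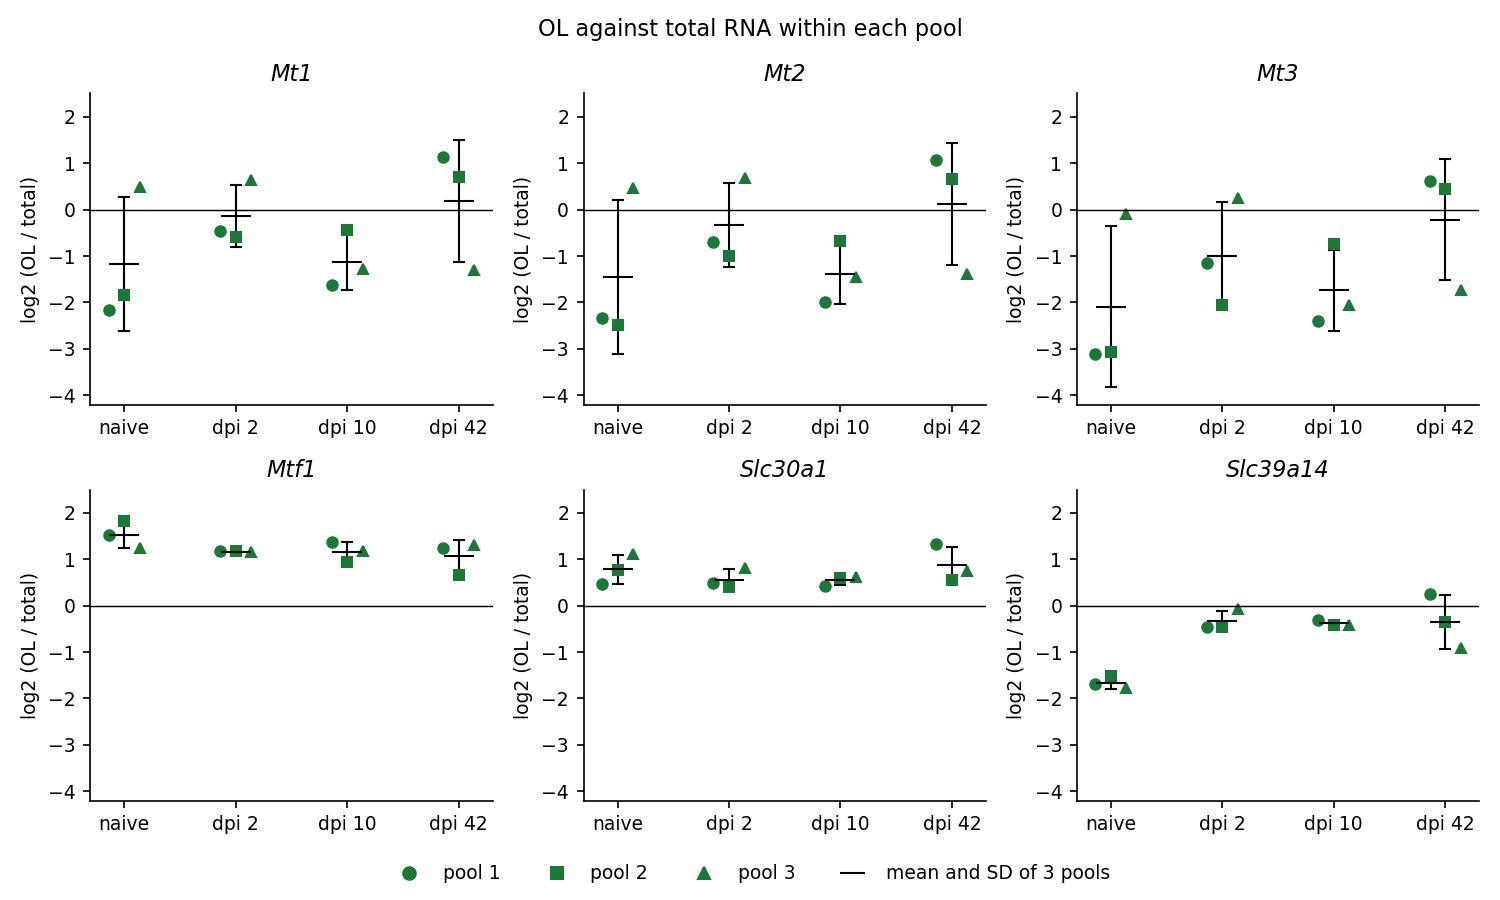
Log2 ratio of OL to total RNA in each pool, from TMM-scaled CPM, by group, with the mean and SD of 3 pools as a bar and whiskers; a value of 0 is equal level. Mtf1 and Slc30a1 are above 0 in all 12 pools, Slc39a14 goes from -1.77 to -1.52 in naive pools to -0.92 to 0.25 after SCI, and Mt1, Mt2 and Mt3 vary by pool.

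In the order of group means, Slc39a14 was highest in total RNA on dpi 2 (69 ± 13.5 CPM) and lowest in naive OL RNA. Of the steps between neighbours in this order, that from naive total RNA (33.5 CPM) to naive OL RNA (10.7 CPM) passed the test (1.65 ± 0.18, q = 9.4e-08). For Mtf1 the 4 OL groups were above the 4 total RNA groups, with naive OL RNA above dpi 10 OL RNA (q = 0.016) and dpi 2 OL RNA above naive total RNA (0.68 ± 0.17, q = 0.0021), and the other neighbours were not called. Slc30a1 had the same split of OL above total RNA, and none of its neighbours in the order was called (q = 0.193 to 0.875). For Mt1, Mt2 and Mt3 no neighbouring groups were called (q of 0.108 or more), with dpi 42 OL RNA (1405 CPM) at the top for Mt1 and naive OL RNA (209 CPM) at the bottom.

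Between genes, levels are comparable only per length. Per kb of exonic length in naive total RNA, Mt1 was at 251 ± 23.6 CPM per kb, Mt2 at 245 ± 51.8 and Mt3 at 239 ± 8.55. On dpi 2 these levels were 929 ± 304, 1215 ± 388 and 374 ± 65.7 CPM per kb, so Mt3, near the others in naive tissue, was the lowest of them. Mtf1 in naive OL RNA was at 11.3 ± 2.51 CPM per kb, Slc30a1 at 8.63 ± 2.42 and Slc39a14 at 1.01 ± 0.143. Length matters here: by the first annotated transcript instead of all exons, naive total RNA held 571 CPM per kb of Mt1, 282 of Mt2 and 475 of Mt3, and naive OL RNA 5.09 of Slc39a14.

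Across the 12 OL libraries, the genes most like each member were named by Pearson's r of log2 CPM over 12271 genes. These libraries share the injury course, depth and the astrocyte difference, so r is a description. Mt1 was most like Mt2 (r = 0.994) and Fabp7 (r = 0.977), a fatty acid binding protein of astroglia, and Mt2 was most like Mt1 and Fgf2 (r = 0.986). Mt3 was most like Sdc4 (r = 0.983) and Mras (r = 0.966), with Mt1 in place 39 (r = 0.927). Among the genes most like Mtf1 was Anln (r = 0.972), and Mtf1 ran against Mt1 (r = -0.934) and Mt2 (r = -0.951). Slc30a1 was most like Gpam (r = 0.923) and Fbxo10 (r = 0.849), and its r with Mt1 was -0.217. Slc39a14 was most like Cstb (r = 0.984), a cysteine protease inhibitor, and Rhoc (r = 0.977).

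Over the 12 total RNA libraries Mt1 and Mt2 were again alike (r = 0.993), each with Tsc22d4 (r = 0.984 for Mt1, 0.993 for Mt2). The other nearest genes were Phf5a (r = 0.973) and Drap1 (r = 0.969) for Mt3, Hint3 (r = 0.924) and Acsl1 (r = 0.920) for Mtf1, March1 (r = 0.894) and Ankrd12 (r = 0.874) for Slc30a1, and Igfbp3 (r = 0.976) and Rpl31 (r = 0.963) for Slc39a14.

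The other zinc carriers give the background for Slc30a1 and Slc39a14. Of 9 further exporters (Slc30a2 to Slc30a10), 1 rose and 1 fell in OL RNA on dpi 2, 1 fell on dpi 10, and 4 fell on dpi 42. Over all 17167 genes tested, 3154, 1652 and 2787 rose in OL RNA on dpi 2, 10 and 42, and 3432, 1474 and 2894 fell. The median changes of the exporters were 0, -0.15 and -0.17, against 0 for all tested genes, and 0.0309, -0.18 and -0.26 with genes at the floor of 3 counts set to their bound. Slc30a9 fell at each time (-0.38, q = 0.00306; -0.34, q = 0.0156; -0.35, q = 0.00708), Slc30a5 rose on dpi 2 (0.52, q = 0.00564) and Slc30a7, an exporter into the secretory pathway, fell on dpi 42 (-0.72, q = 6.0e-04). Slc30a2 had no counts in the 3 dpi 42 OL libraries, which allows up to 3 counts in each, and 4 to 27 counts in naive ones. In naive tissue Slc30a7 was OL-enriched (1.01, q = 1.4e-04), while Slc30a3, which loads zinc into synaptic vesicles, and Slc30a10 were OL-depleted (-4.98, q = 1.3e-07; -3.84, q = 7.8e-04).

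Of 13 further importers (Slc39a1 to Slc39a13), 4, 2 and 3 rose in OL RNA on dpi 2, 10 and 42, and 3, 1 and 3 fell. Their median changes were 0, 0.00265 and 0, or -0.0373, 0.0137 and -0.23 with genes at the floor set to their bound. Slc39a1, a plasma membrane importer, rose at each time (1.68, q = 8.8e-08; 0.74, q = 0.0027; 0.94, q = 1.3e-04), from 47.9 to 61.9 CPM in naive OL RNA to 173 to 190 on dpi 2. Slc39a11 also rose each time, on dpi 2 (1.42, q = 2.6e-06), dpi 10 (0.69, q = 0.00974) and dpi 42 (0.68, q = 0.00603), and Slc39a7, which releases zinc from the endoplasmic reticulum, on dpi 2 (0.73, q = 3.5e-07). Slc39a9 fell at each time (-0.55, q = 5.1e-04; -0.41, q = 0.0133; -0.59, q = 3.2e-04), and Slc39a10 on dpi 42 (-1.48, q = 7.2e-05). Slc39a3 and Slc39a7 were OL-enriched in naive tissue (1.42, q = 1.8e-08; 0.90, q = 7.8e-07), and Slc39a10 was OL-depleted (-2.35, q = 2.5e-07).

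**Figure D5:**
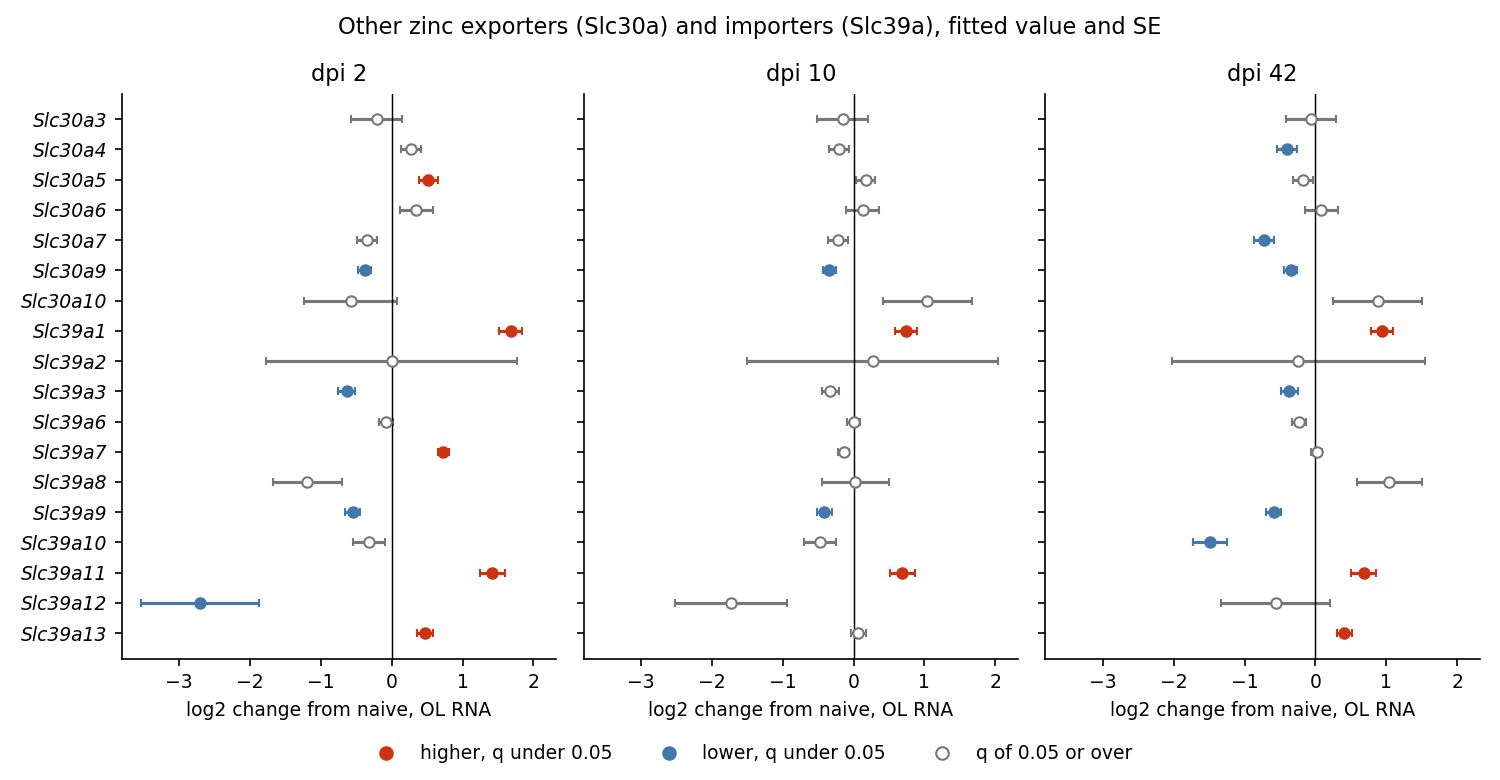
Fitted log2 change from naive in OL RNA on dpi 2, 10 and 42 for 18 other zinc exporters (Slc30a) and importers (Slc39a), with bars of 1 SE on either side, red where higher and blue where lower at q under 0.05. Left out are 4 genes with 3 counts or fewer in every library of an OL group; Slc39a1 (1.68) and Slc39a11 (1.42) have the highest changes among these 18 on dpi 2.

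Among 5 genes described as MTF1 targets (Slc39a10, Ndrg1, Csrp1, Selenow and Gclc), 1 rose at each time in OL RNA, and 3, 1 and 1 fell on dpi 2, 10 and 42. Of all tested genes, 38.4%, 18.2% and 33.1% were called in either direction at these times. Selenow, a small selenoprotein, rose each time (1.13, q = 1.7e-07; 0.50, q = 0.00408; 0.97, q = 3.1e-06), while Csrp1 and Gclc, the catalytic subunit for glutathione synthesis, fell on dpi 2 (-0.62, q = 4.3e-06; -0.66, q = 4.1e-05), and Gclc also on dpi 10 (-0.35, q = 0.0262). Their median changes were -0.62, -0.0304 and 0.0868, against 0 for all genes. Ndrg1 and Csrp1 were strongly OL-enriched in naive tissue (3.17, q = 2.3e-10; 2.11, q = 5.4e-10). Mt4, the remaining gene of the metallothionein cluster, had no count in any of the 24 libraries.

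Metallothioneins also bind copper, and of 9 copper genes 5, 1 and 5 rose in OL RNA on dpi 2, 10 and 42, and 1, 0 and 1 fell. The shares of all tested genes called in either direction were 38.4%, 18.2% and 33.1%. Median changes of the copper genes were 0.50, 0.15 and 0.47, against 0 for all genes. The copper chaperone Atox1 rose on dpi 2 (0.92, q = 1.2e-04) and dpi 42 (0.69, q = 0.00238), and Cox17, which delivers copper to cytochrome oxidase, on dpi 2 (1.10, q = 1.2e-04) and dpi 42 (0.55, q = 0.0343). Cp, the ferroxidase ceruloplasmin, rose at each time, by 0.81 (q = 0.0423), 1.26 (q = 0.00628) and 2.56 (q = 3.9e-06). Its mean in OL RNA was 5 CPM in naive tissue and 8.77, 12 and 29.6 on dpi 2, 10 and 42. In total RNA the means were 11.8, 59.3, 86.3 and 82 CPM, and Cp was OL-depleted in naive tissue and at each injury time. Atp7a, the copper export pump, fell on dpi 2 (-2.10, q = 4.5e-05) and dpi 42 (-2.13, q = 6.9e-05), from 15.5 to 20.4 CPM in naive OL RNA to 2.92 to 5.37 on dpi 2 and 2.13 to 6.31 on dpi 42. In naive tissue Slc31a2, Ccs and Commd1 were OL-enriched (2.41, 1.22 and 0.69, q = 2.0e-08, 2.2e-06 and 3.0e-04), as was Atp7a. Slc31a1, Cp and Atox1 were OL-depleted there.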

How the data were processed

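RNA-seq was measured in 24 libraries, an OL and a total RNA library from each of 12 pools. The authors aligned polyA reads with STAR to mm10 after FastQC (0.10.1), counted them per gene with HTSeq (0.10.0) and deposited raw counts in a single table of 21965 genes. Genes with fewer than 10 counts over all libraries were left out, which kept 17167, and TMM factors were applied. The quasi-likelihood test of edgeR (4.0.16, R 4.3.3) was used, with Benjamini-Hochberg q over all tested genes and a threshold of 0.05. Changes from naive and between times came from a model of 8 groups (16 residual df), and OL enrichment and its difference from naive from a model with pool terms (8 residual df). Both models fit a spread per gene that OL and total RNA libraries share. Pools pair the libraries because OL and total RNA came from the same lysate. Correlations of deviations from the group means were -0.0109 to 0.137 within a pool and -0.105 to 0.0502 between pools. On dpi 42, where the pools were taken from the library numbers, they were -0.0109 to 0.02 within and -0.028 to 0.0253 between pools. The pairing is therefore not visible in the data of that group. Over the 6 genes 114 tests were made in 19 contrasts.

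Samples were grouped by the labels. All 24 replicate pairs differed by more than sampling noise. CPM are TMM-scaled. The members and gene lists were chosen with earlier results of these data known. The 6 members were named in full, and from each other list the 3 genes with the lowest q in a contrast, where called. For the likeness to other genes, those with a mean log2 CPM of at least 1 were used. Alternatives were other scalings (DESeq2 1.42.0 size factors, library sizes alone, a total RNA reference), other filters, a length and GC offset (spline with 5 df), the DESeq2 Wald test, fits on only the groups compared, the replicate block, each replicate left out, and 2 sets of libraries left out. The edgeR models were tested on simulated data with the same spread per gene in OL and total RNA and no differences between pools. That test cannot check the unequal spread of OL and total RNA or the pairing. The Cre driver and a gene close to Mtf1 in pattern are not reported here.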

Additional observations from a re-analysis of the deposited data

Results flagged for a closer look

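The OL enrichment of Slc39a14 differed between injured and naive tissue by the interaction in the paired edgeR model, by 1.32 on dpi 2 (q = 0.00349), 1.27 on dpi 10 (q = 0.00784) and 1.31 on dpi 42 (q = 0.00686) on the log2 scale, and all 9 injured pools were above all 3 naive pools. Leaving out 1 pool gave 0.99 to 1.39, 1.22 to 1.34 and 1.01 to 1.60 with the calls kept. Without the OL libraries with high astrocyte markers, which leaves 1 pool on dpi 42, the dpi 42 value was 0.70 and not called. The 3 values share the naive pools.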

How the results depend on the processing

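The spread of 3 pools per group and the astrocyte markers of the OL libraries limit the metallothionein values, and the scaling limits OL enrichment, whose median over all genes was -0.31 to -0.24. Of the log2 values under alternatives other than leaving out 1 library, 820 kept direction and side of the threshold, 87 passed it newly, 33 lost it and 28 turned. The cause of these shifts was not tested.

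The number called over all genes also moved between settings. For OL dpi 2 it was 3154 up and 3432 down of 17167 in the main fit. With only the groups compared it was 2128 up and 1839 down of 15155. Values for dpi 42 without the OL libraries with high astrocyte markers rest on 1 OL library. The number of the 6 genes called moved as follows. Without the OL libraries with high astrocyte markers (chosen after seeing the data) it was 5 for OL dpi 10, 3 for total dpi 10, 5 for total dpi 42, 5, 1 and 3 for OL dpi 10 against 2, 42 against 10 and 42 against 2, 4 and 1 for total dpi 10 against 2 and 42 against 10, 6 for OL enrichment on dpi 2, 10 and 42, and 4, 4 and 3 for its difference from naive. With only the groups compared it was 2 for OL dpi 2 and dpi 42, 3 and 5 for total dpi 10 and 42, 3 and 0 for OL dpi 10 and 42 against 2, 4 and 2 for total dpi 10 against 2 and 42 against 10, 6 for dpi 10 enrichment and 0 for the dpi 42 difference (Slc39a14 1.33, q = 0.0554). In those fits Mt1 was at 2.40 (q = 0.0642) and 2.76 (q = 0.0791) in OL RNA on dpi 2 and 42. Over all genes they called 1074 up and 1249 down of 15392 for OL dpi 10 against 2. For OL dpi 42 against 2 it was 340 and 392 of 15370. For total dpi 10 against 2 it was 1542 and 1827 of 16546, and for 42 against 10 459 and 737 of 16587. For dpi 10 enrichment it was 4776 and 5104 of 16284, and for the dpi 42 difference 379 and 287 of 16601. With the length and GC offset 3 of the 6 were called for OL dpi 2 and dpi 42, 2 for total dpi 2 and 0 for total dpi 42. Over all 17154 genes in that fit 2511 rose and 3231 fell for OL dpi 2, and 1738 and 2990 for OL dpi 42. For total RNA it was 2732 and 3265 on dpi 2, and 1552 and 1880 on dpi 42. DESeq2 called 2 and 3 of the 6 in total RNA on dpi 10 and 42, and 3 for OL dpi 10 against 2 and 42 against 10. Over all 17167 genes it called 2816 up and 2984 down in total RNA on dpi 10, and 2142 and 2018 on dpi 42. For OL dpi 10 against 2 it called 2338 and 2124, and for 42 against 10 894 and 1060. Other scalings gave 1 of the 6 for total dpi 10 (library sizes, total RNA reference), with 3070 up and 1839 down, and 2892 and 1908, over all genes. For total dpi 42 they gave 0 (DESeq2 size factors, 1868 and 1698 over all genes) and 2 (total RNA reference, 2074 and 1132). For dpi 10 enrichment it was 5 (all 3), with 3865 and 4896 (DESeq2 size factors), 2015 and 7628 (library sizes) and 3639 and 5037 (total RNA reference) over all genes. For the dpi 42 difference it was 2 (total RNA reference), with 336 and 1551 over all genes. Without the libraries with conflicting labels 0 of the 6 were called for total dpi 42 against 2, with 618 up and 808 down of 17111 over all genes. Mt3 in OL RNA on dpi 42 was then 1.42 (q = 0.196).

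Directions turned as follows. In OL RNA on dpi 10 Mt3 was 0.81 and Slc30a1 0.0234 without high astrocyte libraries. In total RNA Mt3 was 0.0599, 0.0327 and 0.0296 on dpi 10 (library sizes, total RNA reference, only groups compared) and -0.0641 on dpi 42 (length and GC). OL enrichment of Slc30a1 was -0.00619 and -0.0287 on dpi 2 and 10 (library sizes) and of Slc39a14 0.12 and 0.18 on dpi 2 and 42 (length and GC). On dpi 42 Mt1 enrichment was -0.29, -0.30 and -1.31 and Mt2 -0.35, -0.36 and -1.38 (library sizes, conflicting labels, high astrocyte), and Mt3 0.15 (length and GC; no replicate block). The dpi 10 difference was -0.15, -0.0832 and -0.47 for Mt1 and -0.13, -0.17 and -0.77 for Mt2 (total RNA reference, length and GC, no replicate block), and -0.0313 and -0.26 for Mt3 (the latter 2). The dpi 42 difference of Slc30a1 was -0.15 (total RNA reference) and -0.13 (conflicting labels).

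The replicate block changed no number of calls for changes in OL or total RNA. Without the pairing, enrichment calls were 3, 2, 2 and 2 in naive, dpi 2, 10 and 42 tissue, with Mt3 at -1.31 (q = 0.112) in naive tissue and -1.57 (q = 0.0606) on dpi 10. Over all 17167 genes 4283, 4252, 4326 and 4280 were then OL-enriched, and 5237, 4945, 4943 and 4963 OL-depleted.

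Leaving out 1 replicate gave 5 to 5, 1 to 4 and 4 to 5 calls for OL dpi 2, 10 and 42, 1 to 4, 0 to 0 and 0 to 1 for total RNA, 1 to 2, 0 to 3 and 0 to 1 for OL dpi 10 against 2, 42 against 10 and 42 against 2, and 0 to 1, 0 to 0 and 0 to 1 for total RNA. Enrichment had 3 to 6, 1 to 2, 1 to 2 and 2 to 3 calls in naive, dpi 2, 10 and 42 tissue, and its difference 1 to 1, 1 to 1 and 1 to 4. Turned values ranged from -0.99 to 1.42 for Mt3 and -0.35 to 0.0331 for Slc30a1 in OL RNA on dpi 10, -0.0205 to 0.10 for Slc30a1 in total RNA on dpi 10, -0.57 to 0.0909 for Mt1 enrichment on dpi 2, -0.30 to 0.93, -0.36 to 0.86 and -0.63 to 0.53 for Mt1, Mt2 and Mt3 enrichment on dpi 42, -0.44 to 0.88, -0.47 to 1.03 and -0.19 to 1.34 for their dpi 10 difference, and -0.13 to 0.26 for the dpi 42 difference of Slc30a1.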
